A study of Mus musculus with 6 samples.

Results

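The mitochondrial ribosomal protein genes were taken as every row of the deposited count table whose symbol is Mrpl or Mrps followed by digits and an optional a, b or c. That choice uses symbols only, and it found 77 of the 24181 genes in the table, 48 named for the large subunit (Mrpl) and 29 for the small subunit (Mrps). The libraries are bulk 3'-end RNA sequencing of cultured MC38 cells, a mouse line labelled as colon adenocarcinoma. The labels give 2 groups of 3 samples, parental cells (genotype WT) and cells expressing STING-N153S, and the series compares these groups. The 3 parental samples, replicates 1 to 3, were analysed. Cells expressing STING-N153S are not analysed here: the table has 6 further columns in 2 sets of 3 replicates, whose names do not show which column belongs to which sample, and no contrast of the groups is given. The parental libraries held 3358908, 4020023 and 3210024 counts. Levels are in CPM, a gene's count divided by its library's total and multiplied by 1000000, and means carry the SD over the libraries (n = 3). Since only 3' ends were read, counts were taken not to grow with transcript length, and CPM was not divided by length. Across the 77 genes the Spearman correlation of level with the length of all annotated exons was -0.014. Whether the 3' ends of different genes are captured and assigned equally well was not tested. Orders and ratios between genes are therefore those of counts, and may not be those of transcript numbers.

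Of 12 intestinal epithelial markers listed, 6 were found in the table. Epcam, Cdh1, Krt18, Krt20, Cdx2 and Muc2 have no row, which was not read as 0 counts. Although the line is labelled as colon adenocarcinoma, 1 of the 6 found had a mean of at least 1 CPM, Axin2, and Cdx1 and Lgr5 had 0 counts. The 6 found had a summed level of 2.24 to 2.68 CPM in the libraries. These levels do not test the tissue of origin in the label. Mesenchymal genes reached 1 CPM in 5 of 6 cases, with a summed level of 3580 to 3978 CPM. Most of this sum was Vim, with a mean of 3058 CPM, while Col1a1 had 3.58 and Col1a2 0.99 CPM. No marker reached 1 CPM among 4 macrophage, 3 lymphocyte and 4 endothelial genes found, and the 3 lymphocyte genes had 0 counts. The deposited annotation names the 3 libraries WT-BR1, WT-BR2 and WT-BR3 without spelling out BR, and the labels do not say whether they came from separate cultures, so every spread given here is that between these samples and may be technical.

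The mitochondrial ribosome translates the few messages of the mitochondrial genome, all of which encode subunits of the oxidative phosphorylation complexes. Its RNA comes from mitochondrial DNA, while its proteins are encoded in the nucleus, made in the cytosol and imported. The small subunit holds the messenger RNA and decodes it, and the large subunit joins amino acids and releases the chain at a tunnel exit next to the inner membrane. Part of the proteins descend from bacterial ribosomal proteins, and the rest were added in the mitochondrial lineage. Loss of single members in people causes combined oxidative phosphorylation deficiency.

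All 77 genes were detected in every library, with the lowest count in any library at 15. By mean level, 77 members reached 1 CPM, 74 reached 10 CPM and 50, or 64.9%, reached 100 CPM. Over all genes of the table, 49.5% reached 1 CPM, 31.2% reached 10 CPM and 8.54% reached 100 CPM. The median member stood at 132.7 CPM, beside 0.941 CPM for the median of all genes, and 60 of the 77 were among the 10% of genes with the highest means. The members together took 1.21%, 1.20% and 1.20% of the counts in replicates 1 to 3, a summed level of 12067 ± 67.2 CPM (SD, n = 3). The exact (Clopper-Pearson) 95% intervals of these shares, which cover counting error only, ran from 1.20% to 1.23%, from 1.19% to 1.21% and from 1.19% to 1.22%, so that the libraries could not be told apart by this share.

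The genes named for the large subunit gave 8249, 8218 and 8187 summed CPM in replicates 1 to 3, and those named for the small subunit 3895, 3804 and 3847. The ratio of their counts was 2.12, 2.16 and 2.13, with a mean of 2.14 ± 0.02 (SD, n = 3). The large subunit also has more members. Per gene the subunits were close, with a median of 131.6 ± 5.42 CPM for Mrpl and 124.2 ± 0.74 CPM for Mrps genes (SD, n = 3). The Mrps median was the same 1 gene in every library, so its SD is the spread of that gene. Mrpl was above Mrps in replicates 2 and 3 and level with it in replicate 1, at 125.3 against 125.04 CPM. Members were also classed by whether they are listed as the counterpart of a bacterial protein, with Mrps18a and Mrps18b, paralogues of the S18 counterpart, among the others. Genes with a bacterial counterpart had a median of 141.9 ± 3.08 CPM over 44 members, and the 33 others 118.7 ± 4.34 CPM (SD, n = 3). The bacterial class was higher in every library, and the spread among genes within each class was far wider than that gap, with quartiles from 93.8 to 231 CPM and from 77.4 to 164 CPM.

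**Figure D1:**
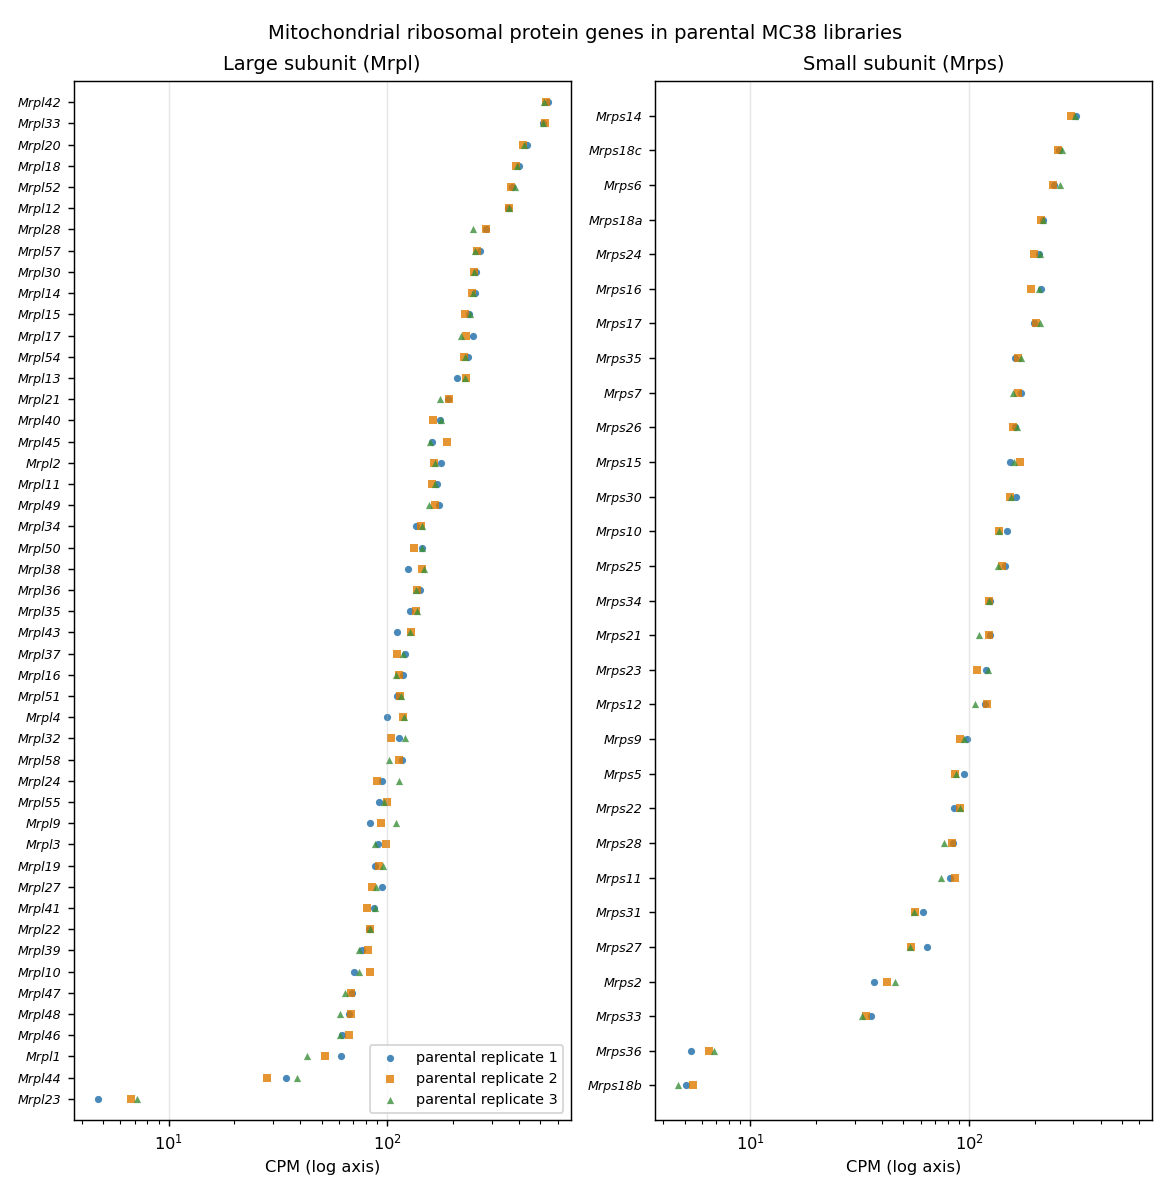
CPM of each of the 48 Mrpl and 29 Mrps genes in the 3 parental libraries, on a log axis, sorted by mean within each subunit; each symbol is 1 library. In both subunits the levels run without a gap down to about 34 CPM, and Mrpl23, Mrps36 and Mrps18b stand apart at 5.07 to 6.23 CPM.

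At the top of the large subunit stood Mrpl42, a protein without a bacterial counterpart, with 543, 528 and 521 CPM in replicates 1 to 3. Mrpl33, the counterpart of bacterial L33, followed with 514, 523 and 515 CPM. The count of Mrpl42 was above that of Mrpl33 in 3 of 3 libraries, but the ratio over the pooled counts was 1.03, with an exact (Clopper-Pearson) 95% interval from 0.988 to 1.06 that includes equal counts. Mrpl20, whose bacterial counterpart binds the ribosomal RNA early in assembly, had 433, 418 and 422 CPM, and Mrpl18, a protein of the central protuberance, 399, 386 and 392 CPM. Here the order held in each library and the pooled ratio of Mrpl20 to Mrpl18 was 1.08, with an interval from 1.04 to 1.13. Mrpl52 had 375 ± 8.85 CPM, Mrpl28 269 ± 20.5 CPM and Mrpl57 258 ± 7.55 CPM (SD, n = 3).

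Mrpl12 forms the stalk that recruits translation factors, and the ribosome holds it in several copies, anchored through Mrpl10 next to Mrpl11. It had 356, 358 and 360 CPM in replicates 1 to 3, a mean of 358 ± 1.89 CPM (SD, n = 3). Mrpl11 had 168, 160 and 166 CPM and Mrpl10 70.6, 83.3 and 73.8 CPM. The 3 genes did not overlap in any library. The count of Mrpl12 was 4.74 ± 0.39 times that of Mrpl10 and 2.17 ± 0.06 times that of Mrpl11 (SD, n = 3).

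Small-subunit levels were led by Mrps14, a protein of the head, with 308, 292 and 304 CPM. Mrps18c followed with 259, 255 and 264 CPM and Mrps6, the counterpart of bacterial S6, with 245, 242 and 260 CPM. Mrps24, the counterpart of bacterial S3, had 206 ± 6.67 CPM, Mrps16 204 ± 11.1 CPM, Mrps17 203 ± 5.94 CPM and Mrps35 167 ± 5.80 CPM (SD, n = 3). Mrps30, which carries a small-subunit name but sits in the large subunit of the mammalian ribosome, had 158 ± 5.50 CPM (SD, n = 3), above the median of either subunit.

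The Mrps18 genes are 3 paralogues that descend from the gene of bacterial S18. Mrps18c is the closest counterpart of S18, Mrps18b lies elsewhere in the small subunit, and Mrps18a lies in the large subunit. Mrps18a had 732, 853 and 701 counts, or 218, 212 and 218 CPM, and Mrps18b had 17, 22 and 15 counts, or 5.06, 5.47 and 4.67 CPM. Its levels did not overlap with those of its paralogues. Mrps18b had the lowest mean of the 77 members, but Mrpl23 was below it in replicate 1, and the pooled ratio of Mrpl23 to Mrps18b was 1.22, with an exact (Clopper-Pearson) 95% interval from 0.840 to 1.78 that includes equal counts. The count of Mrps18a was 42.9 ± 3.98 times that of Mrps18b, and that of Mrps18c 51.4 ± 5.03 times (SD, n = 3). Mrps18c exceeded Mrps18a by a smaller ratio, 1.20 ± 0.01, in 3 of 3 libraries (SD, n = 3). The last 300 bases of the longest coding Mrps18b transcript lie wholly across a gene annotated on the other strand, Gm16279, which had 1, 1 and 0 counts. This overlap is not particular to Mrps18b. In the last 300 bases of the gene, 8 of the 77 members had an exon of another gene on the other strand. Of these, Mrpl24, Mrps25 and Mrps34 also matched that gene over all 300 bases, and had means of 98.7, 140 and 124 CPM. The sources used here do not say whether the counting used strand, and the part of the overlap in the low level of Mrps18b was not tested.

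The members next to Mrps18b at the low end were Mrpl23, a protein of the tunnel exit, with 16, 27 and 23 counts, and Mrps36, with 18, 26 and 22 counts. Their pooled ratio was 1.00, with an exact (Clopper-Pearson) 95% interval from 0.700 to 1.43, so they were not separated at this depth. Mrps36 bears a ribosomal name, but its product is known as a subunit of the 2-oxoglutarate dehydrogenase complex. Of the last 300 bases of Mrpl23, 298 are identical to the processed pseudogene Mrpl23-ps1, which had 9, 15 and 10 counts, and with no stated rule for reads that match both, the level of Mrpl23 is uncertain. The row of the pseudogene Mrps36-ps1 had 4, 4 and 6 counts. Of the 77 members, 11 had such a match (at least 95% identity over at least 150 of the last 300 bases) in a transcript of another gene, some of them copies and some genes that overlap on the chromosome. Among these was Mrpl42, whose copy Gm6419 had 5, 6 and 7 counts.

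Above these 3 the next members were Mrpl44, an RNase III-like protein near the tunnel exit, with 34.5, 28.1 and 38.6 CPM, and Mrps33, with 35.4, 33.8 and 32.4 CPM. These overlapped, with a pooled count ratio of 0.983 and an interval from 0.847 to 1.14. Mrps2, the counterpart of bacterial S2, had 36.6, 42.04 and 45.8 CPM, Mrpl1, of the L1 stalk, 61.3, 51.7 and 43.0 CPM, and Mrpl46, a protein of the central protuberance, 61.9, 66.7 and 61.1 CPM. Without the 3 lowest genes the highest member was 15.7 times the lowest, against 105 times with them, and the upper quartile was 2.24 times the lower. For the 8 proteins placed at the exit tunnel the median was 80.3 ± 2.02 CPM, and for the 7 of the central protuberance 138 ± 12.4 CPM (SD, n = 3). The latter median was the same 1 gene in every library, so its SD is the spread of that gene. The central protuberance was the higher class in 3 of 3 libraries, though single genes of the classes overlapped, with Mrpl17 of the tunnel at 231 ± 15.03 CPM (SD, n = 3).

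Other genes of mitochondrial translation were read from lists. Of 5 ribosome subunits that carry other names, 4 reached 100 CPM. Gadd45gip1, a large-subunit protein at the tunnel exit, had 367, 350 and 361 CPM, Chchd1 262, 238 and 256 CPM and Aurkaip1 158, 142 and 159 CPM, in the range of the Mrpl and Mrps genes. The fifth, Ptcd3, which binds messenger RNA at the small subunit, had 58.1 ± 8.23 CPM (SD, n = 3). Assembly factors stood lower, with a median of 22.0 ± 1.18 CPM over 24 genes and none at 100 CPM. The highest were Rbfa, which acts on the small-subunit RNA, with 93.2 ± 5.50 CPM, Mpv17l2 with 86.7 ± 3.12 CPM and the GTPase Noa1 with 62.7 ± 6.97 CPM (SD, n = 3).

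The 12 translation factors had a median of 30.2 ± 1.07 CPM (SD, n = 3), and 2 reached 100 CPM. These were the elongation factor Tufm, with 118, 133 and 136 CPM, and its exchange factor Tsfm, with 126, 126 and 137 CPM, whose values overlapped and lay near the median ribosomal member. The elongation factor Gfm1 had 61.5 ± 7.70 CPM (SD, n = 3). Among 10 genes of mitochondrial transcription and RNA stability, the RNA-binding Slirp stood at 438 ± 3.51 CPM, its partner Lrpprc at 43.4 ± 9.96 CPM and the transcription and packaging factor Tfam at 75.2 ± 4.35 CPM (SD, n = 3). The RNAs of the mitochondrial ribosome itself were counted at 6732, 6349 and 6307 CPM for mt-Rnr2, of the large subunit, and 2950, 3208 and 2309 CPM for mt-Rnr1, of the small subunit. These RNAs enter the library only through oligo-dT priming, so their counts do not give the amount of ribosome. Among the mitochondrial messages counted, mt-Cytb had 2516 ± 170 CPM (SD, n = 3). The rows of mt-Co2, mt-Co3 and mt-Nd3, messages that cells with mitochondria use, were at 0 counts, and mt-Atp6 had 1, 0 and 0, so the table gives no order of the mitochondrial messages.

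The cytosolic ribosomal protein genes, 81 rows named Rpl or Rps, had a median of 1323 ± 22.2 CPM (SD, n = 3), and 66 of them had a mean above that of the highest mitochondrial member. Rps26 had 5141 ± 258 CPM and Rpl37 4174 ± 129 CPM (SD, n = 3). Their share of the library was 11.95%, 11.7% and 11.9% in replicates 1 to 3.

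**Figure D2:**
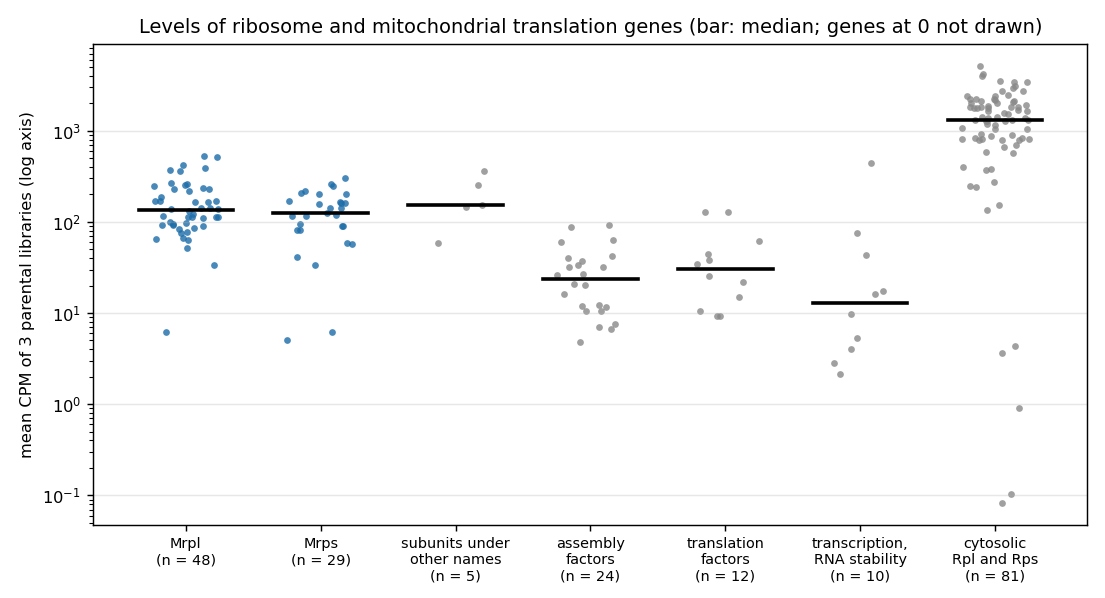
Mean CPM over the 3 parental libraries, on a log axis, for Mrpl and Mrps genes (blue) and for other lists (grey); each point is a gene, the bar is the list median, and 2 cytosolic genes at 0 counts are not drawn. The medians of the Mrpl and Mrps genes lie above those of assembly and translation factors and below that of cytosolic ribosomal proteins, while single genes of the lists overlap.

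Whether a gene differed among the parental libraries was read from a chi-square test of its counts, run over all genes, with Benjamini-Hochberg adjustment at 0.05; it compares libraries and not conditions. Of 77 members tested, 0 were called as varying beyond counting noise, where 2.8% of all 11118 genes tested were. That background, 311 genes, fell to 61 of 11126 without replicate 3, with 0 members among them. At an unadjusted p below 0.05 there were 9 members, or 11.7%, against a background of 13.2%. All 9 were large-subunit genes: Mrpl1, Mrpl4, Mrpl9, Mrpl17, Mrpl24, Mrpl28, Mrpl38, Mrpl44 and Mrpl45, named here after their values were seen. Whether the subunits differ in this was not tested. The lowest adjusted p of a member was that of Mrpl1, 0.103, and its level was highest in replicate 1 and lowest in replicate 3.

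Mrpl9 moved in the other direction, with 83.7, 93.8 and 109 CPM in replicates 1 to 3 and an adjusted p of 0.106 in the chi-square test. Mrpl28 had 281, 281 and 246 CPM, with an adjusted p of 0.121, and Mrpl24 94.1, 89.6 and 112 CPM, with an adjusted p of 0.116. Replicate 3 was the lowest library for Mrpl28 and the highest for Mrpl9 and Mrpl24, though with 3 values some library always is. Mrpl45, with 160, 187 and 157 CPM and an adjusted p of 0.122 in the same test, was highest in replicate 2. Without replicate 2, which leaves the comparison of replicates 1 and 3, the test called 2 of 77 members, Mrpl1 (adjusted p = 0.0259) and Mrpl28 (adjusted p = 0.0396). Over all genes it called 274 of 11063 in that setting. The ratio of the highest to the lowest library had a median of 1.09 over members and was below 1.5 in 76 of 77, the exception being Mrpl23, at 1.504.

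The median coefficient of variation of the members was 4.59%, and the SD expected from counting alone at their depth was 4.62% of the mean. With 3 libraries, counting alone puts more genes below such an expected value than above it. Near equality therefore does not show a match to counting noise. The chi-square statistic per degree of freedom had a median of 0.919 over members and 0.934 over all genes tested, against 0.693 under counting alone. For the 77 cytosolic ribosomal protein genes with a count in every library the median coefficient of variation was 3.04%, against 1.43% expected from counting. Of the 76 cytosolic genes tested, 31 were called. Those genes have more counts, and the test finds smaller differences in them, so these numbers do not rank the families by stability. Of the other lists, 1 of 24 assembly factors was called, the termination factor relative Mterf3, with 31.3, 40.05 and 24.0 CPM (adjusted p = 0.0383), 0 of 12 translation factors, and 1 of 10 transcription and stability genes, Lrpprc, with 40.5, 54.5 and 35.2 CPM (adjusted p = 0.0185). Of the 16 mitochondrially encoded genes tested, 6 were called (37.5%), among them the ribosomal RNA mt-Rnr1, which was lowest in replicate 3 (adjusted p = 8.9e-108).

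**Figure D3:**
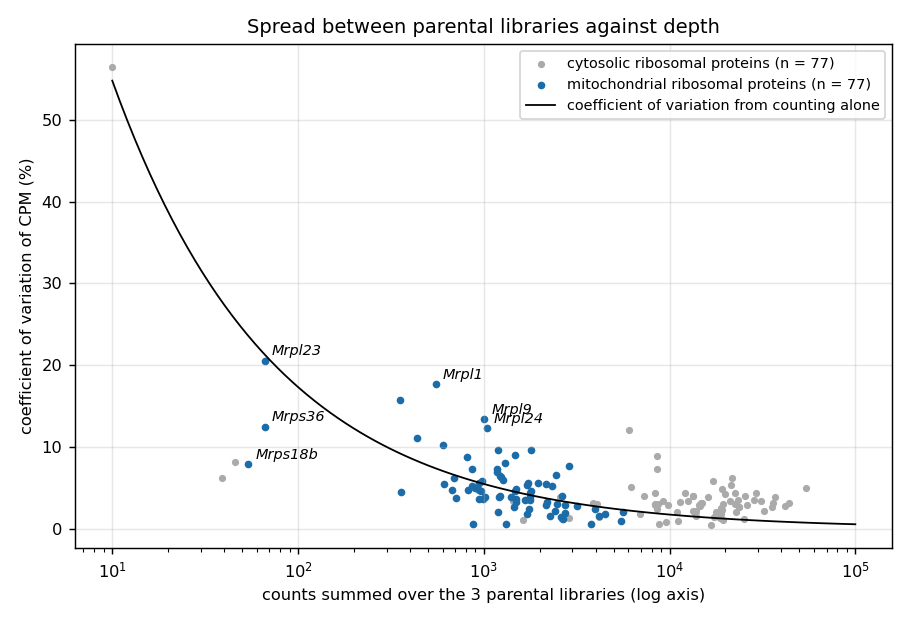
Coefficient of variation of CPM over the 3 parental libraries, in percent, against the summed count on a log axis, for mitochondrial (blue) and cytosolic (grey) ribosomal protein genes; the line is the spread that counting alone gives. The mitochondrial members scatter on both sides of the line, 30 of 77 above it, and 63 of 77 cytosolic genes lie above it. With 3 libraries, counting alone would put more genes below the line than above it.

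The members lie on 17 chromosomes, with 11 on chromosome 11 and 8 on chromosome 17. Their gene starts often face a neighbour. In the GENCODE annotation of GRCm38, 33 of 77 members (42.9%) have a protein-coding gene on the other strand that starts within 1000 bases, against 14.6% of all 14188 protein-coding genes in the table and 17.8% of those at 1 CPM or more. When only starts within 300 bases were counted, the shares were 28.6%, 10.2% and 12.8%. When only pairs whose starts do not overlap were counted, 18 members remained, 23.4% against 9.22% and 11.3%. This comparison was chosen after the data were seen and uses the annotation, not the counts.

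A single such pair holds 2 members, Mrps11, the counterpart of bacterial S11, and Mrpl46. Mrps11 had 81.6, 86.1 and 74.5 CPM and Mrpl46 61.9, 66.7 and 61.1 CPM, a count ratio of 1.28 ± 0.05, above 1 in 3 of 3 libraries (SD, n = 3). The remaining 31 members face a gene outside the family. The member was the higher gene in every library in 23 of these pairs and the lower in 7, with a median of 20.7 CPM for the neighbours. Members are high beside most genes, with 64.9% of them and 8.54% of all genes at 100 CPM or more. The order was not compared with that of members and genes that do not face them, so it is not shown to be a trait of the pairs.

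The next 5 pairs were chosen for the neighbour's function after the values were seen, and whether mitochondrial genes are common among the neighbours was not tested. Mrpl36 faces Ndufs6, a subunit of respiratory complex I, and the count of Ndufs6 was 1.73 ± 0.08 times that of Mrpl36 (SD, n = 3). Mrpl47 faces Ndufb5, another complex I subunit, which had 3.20 ± 0.09 times its count (SD, n = 3). Mrpl43 faces Twnk, the helicase of mitochondrial DNA, and had 7.52 ± 0.53 times the count of Twnk (SD, n = 3). Mrps12, which shapes the decoding centre, faces Sars2, the mitochondrial seryl-tRNA synthetase, at 18.3 ± 4.03 times its count (SD, n = 3). Mrps27 faces Ptcd2, a pentatricopeptide protein of mitochondrial RNA, and this was the pair whose order differed between libraries, with 64.01, 54.2 and 53.6 CPM for Mrps27 and 56.6, 57.2 and 57.3 CPM for Ptcd2.

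Other pairs join a member to a gene of higher level. Mrpl49 had 173, 164 and 155 CPM, and Fau, which encodes a ubiquitin-like protein fused to cytosolic ribosomal protein S30, had 8.15 ± 0.67 times its count (SD, n = 3). Mrpl32 had 113, 104 and 120 CPM, and the proteasome subunit Psma2 had 4.55 ± 0.40 times its count (SD, n = 3). Tcp1, a subunit of the cytosolic chaperonin, had 1.35 ± 0.15 times the count of Mrpl18 (SD, n = 3). Rab6a had 156 ± 8.13 CPM, beside 65.1 ± 4.07 CPM for Mrpl48 (SD, n = 3). Ppp1r10, a phosphatase 1 regulator, stood at 53.6, 48.8 and 33.3 CPM beside the low Mrps18b.

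**Figure D4:**
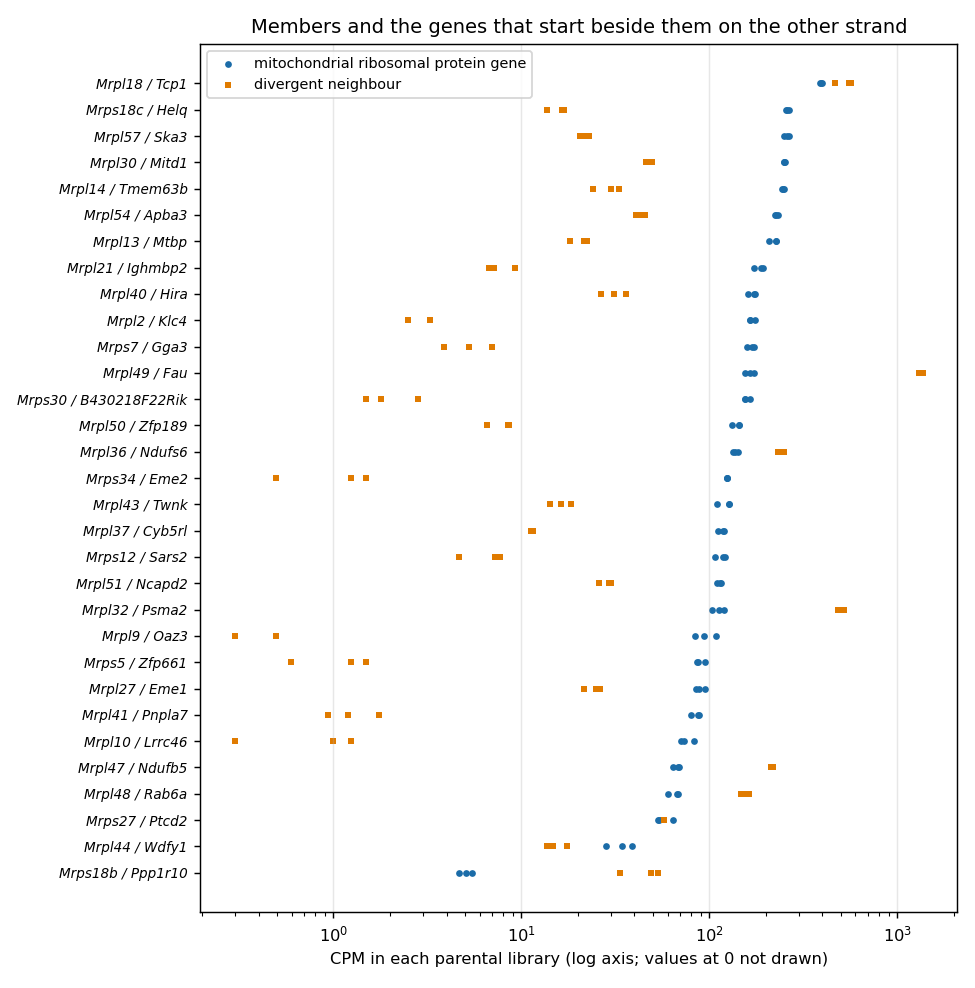
CPM in each parental library, on a log axis, for the 31 members that face a protein-coding gene outside the family within 1000 bases (blue circles) and for that neighbour (orange squares), sorted by the member's mean. The neighbour lies to the left of the member in most pairs, and to the right in every library in 7, among them Mrpl49 with Fau and Mrps18b with Ppp1r10.

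The bases between the RefSeq starts of such pairs are shown for 4 of them, since they lie upstream of both genes by those starts. The GENCODE starts, which defined the pairs, differ. By these the stretch of Mrps11 and Mrpl46 lies inside Mrpl46. Parts of others also lie inside a gene, among them the capitals of Mrpl32. The bases were read from RefSeq on GRCm38.p6, in the direction of the member named first. Capitals mark matches to the NRF1 and ETS motifs described next, and matches to the other motifs are not marked.
Mrps11 and Mrpl46, chr7:78783090-78783130, plus strand: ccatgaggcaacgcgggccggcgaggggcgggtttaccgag
Mrpl57 and Ska3, chr14:57826164-57826238, plus strand: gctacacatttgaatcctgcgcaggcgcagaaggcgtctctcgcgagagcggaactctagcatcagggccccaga
Mrps27 and Ptcd2, chr13:99344679-99344785, plus strand: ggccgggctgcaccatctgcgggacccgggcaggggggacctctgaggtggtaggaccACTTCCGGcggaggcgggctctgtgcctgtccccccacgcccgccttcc
Mrpl32 and Psma2, chr13:14613038-14613241, minus strand: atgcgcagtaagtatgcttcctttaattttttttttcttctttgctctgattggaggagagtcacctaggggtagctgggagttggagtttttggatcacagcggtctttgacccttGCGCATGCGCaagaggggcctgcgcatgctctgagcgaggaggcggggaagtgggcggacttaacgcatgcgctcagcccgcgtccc

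Promoter windows, 250 bases before to 50 after the RefSeq start, were found for 68 of the 77 members and searched on both strands for motifs of factors known to act on nuclear genes of mitochondria. The 10-base motif of NRF1, whose letters are the capitals in the Mrpl32 sequence above, was in 3 members (4.41%), against 2.57% of 8608 genes at 1 CPM or more and 1.07% of all 27025 genes with a window. CCGGAAGT, the motif of ETS factors such as GABP, was in 12 members (17.6%), against 10.3% and 4.31%. AAGATGGC, the motif of YY1, was in 12 members (17.6%), against 5.80% and 3.19%. Of the 53 cytosolic ribosomal protein genes with a window, 3.77% held the first, 18.9% the second and 9.43% the third motif. The E-box CACGTG was in 7.35% of members and 12.2% of genes at 1 CPM or more, CCAAT in 38.2% and 44.0%, and TATAAA in 7.35% and 8.45%. A gene was counted if any of its windows held the motif, and more windows give more chances of a match. Members had 1 window in 95.6% of cases and cytosolic ribosomal protein genes in 84.9%. For genes at 1 CPM or more this was 79.8%, and for all genes with a window 84.6%. The shares were not corrected for this, so the lower shares of members are not a trait of the family. A match says only that these letters lie in the window.

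The YY1 motif lay on the strand of the gene within the first 50 transcribed bases in 8 of the 68 members (11.8%), against 2.78% of genes at 1 CPM or more and 1.04% of all genes with a window. In cytosolic ribosomal protein genes this was 1.89%. Here too any window of a gene could hold the motif. Of these 8, the 5 with the highest levels are shown, to show where it lies, with the motif in capitals and positions counted from 1 at the start of the transcript. It began at base 28 in Mrpl42, 12 in Mrps18a, 37 in Mrps24, 19 in Mrps7 and 17 in Mrpl49. The motif holds the letters ATG of a start codon, and whether translation starts there was not tested. The motif search and this position count were not among the planned results.
Mrpl42, chr10:95501904-95501933, minus strand: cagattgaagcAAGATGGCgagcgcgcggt
Mrps18a, chr17:46111004-46111033, plus strand: aggtgcgttccAAGATGGCggccctcaggg
Mrps24, chr11:5707652-5707681, minus strand: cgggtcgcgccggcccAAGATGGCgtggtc
Mrps7, chr11:115604147-115604176, plus strand: tgacagcggccAAGATGGCtgcccccgcgc
Mrpl49, chr19:6057721-6057750, minus strand: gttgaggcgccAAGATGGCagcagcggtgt

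The 3 members with the NRF1 motif, Mrpl32, Mrpl9 and Mrpl39, had 112 ± 8.14, 95.5 ± 12.8 and 77.4 ± 3.64 CPM (SD, n = 3), below the median of all members. The motif of Mrpl32 lies in the stretch shared with Psma2 above, and those of the others are shown in capitals.
Mrpl9, chr3:94443298-94443327, plus strand: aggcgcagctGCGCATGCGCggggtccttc
Mrpl39, chr16:84735350-84735379, minus strand: aaggagaggcGCGCATGCGCccccgcgtgg
The ETS motif was in the windows of members across the range, among them Mrpl33, Mrpl18 and Mrpl52 at the top and Mrps27 and Mrpl48, with 57.3 ± 5.84 and 65.1 ± 4.07 CPM, near the lower end (SD, n = 3). The stretch of Mrpl33, with 517 ± 5.05 CPM (SD, n = 3), is shown as the most abundant of these.
Mrpl33, chr5:31613937-31613966, plus strand: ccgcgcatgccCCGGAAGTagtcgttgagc

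**Figure D5:**
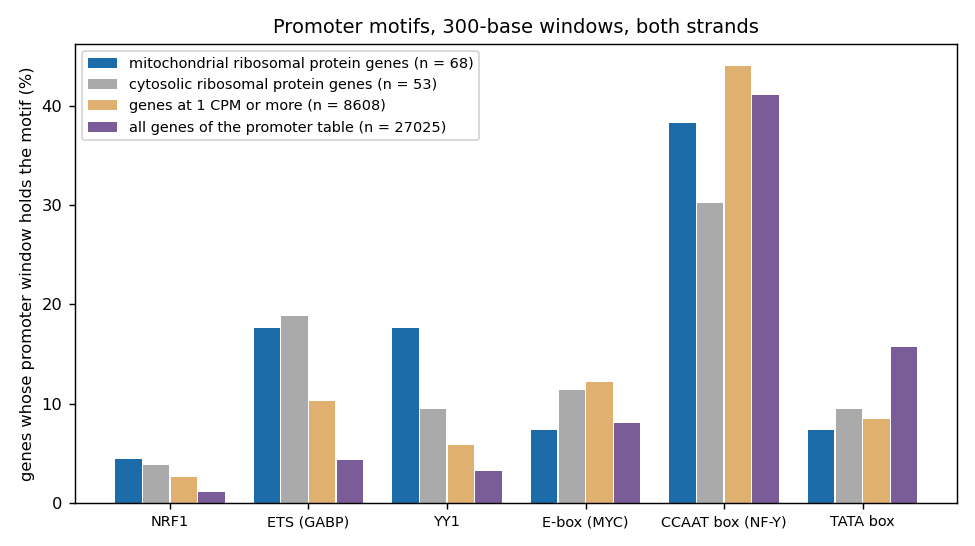
Percent of genes whose 300-base promoter window holds each of 6 motifs on either strand, for 68 mitochondrial and 53 cytosolic ribosomal protein genes, genes at 1 CPM or more and all genes with a window. The YY1 bar of the mitochondrial members, at 17.6%, is above those of the other sets, and their E-box, CCAAT and TATA bars are below those of genes at 1 CPM or more. A gene can have several windows, any of which may match. Only 1 window was present in 95.6% of members and 79.8% of genes at 1 CPM or more, and the bars are not corrected for this.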

How the data were processed

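The deposited values are raw counts for each gene, whole numbers that the authors made from untrimmed reads. Per the file headers, they used Picard 2.18.26 and Drop-seq tools 1.12, aligned with STAR 2.7.5b, and took genes from GENCODE M25 (GRCm38). Libraries were primed with oligo-dT carrying barcodes and molecular identifiers, per the labels' protocols. Collapsing by identifier and the handling of multi-gene reads are not given in the sources used here. PCR copies may remain, and intervals cover counting error only. Columns were matched to samples through the deposited annotation. Of 9 columns, 3 were matched to the parental samples and 6 were mapped to no sample and not used, so the planned edgeR comparison of STING-N153S with parental cells was not run.

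CPM used library totals. The chi-square test took expected counts proportional to median-ratio library sizes, with a minimum of 5 per library. On simulated counts for this comparison, 11106, 11094 and 11105 genes were tested. The test recovered 57.5%, 83.5% and 98.5% of 200 genes changed 1.5, 2 and 4-fold. Of its calls, 3.36%, 2.91% and 5.29% were false, the last above the nominal rate. The simulated counts held counting noise only. Changed genes were drawn above a count floor that Mrps18b, Mrpl23 and Mrps36 do not reach. In the parental libraries 13.2% of genes tested had an unadjusted p below 0.05 in the chi-square test, so these rates may not hold there. Scaling alternatives came from edgeR 4.0.16 and DESeq2 1.42.0. Gene starts and overlaps are from GENCODE M21 on GRCm38, another release than the authors', and promoter windows from RefSeq on GRCm38.p6. Copies were searched with blastn. Named genes are the 8 highest and 4 lowest of each subunit, members in special places of the ribosome and the 3 highest of each other list, of which 1 gene is not reported here; further names are said to be chosen later or are neighbours and motif carriers. The members and lists were chosen with earlier results of these data known. Other tools were R 4.3.3, Python 3.11.15, pandas 2.3.3 and scipy 1.17.1.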

Additional observations from a re-analysis of the deposited data

How the results depend on the processing

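No paired analysis was possible because the libraries analysed all belong to 1 group. The alternatives planned for the contrast with STING-N153S (normalization, filter, DESeq2, leave-one-out and block) were not run. The number of members called as varying between parental libraries was 0 with library totals, TMM and minimum expected counts of 1 and 10. In each, 9 had an unadjusted p below 0.05. It was 0 to 2 when 1 library was left out. The 2, Mrpl1 and Mrpl28, came without replicate 2, where 274 of 11063 genes were called. All 77 members stayed at a mean of 1 CPM or more under every scaling, without any 1 library and at thresholds of 0.5 and 2 CPM. The summed level was 12028 to 12089 CPM without 1 library, and 13291 CPM when library totals excluded the 20 most abundant genes, a change that raises the remaining genes. The median member ran from 130.95 to 135.6 CPM. The ratio of large-subunit to small-subunit counts, 2.135, was 2.472 with Mrps30 and Mrps18a placed in the large subunit, 2.167 without the most abundant member of each subunit, and 2.123 to 2.144 without 1 library. Members with a divergent neighbour numbered 33, 22 within 300 bases and 18 with starts that do not overlap, both chosen after seeing the data. Of 258 values of named genes under other settings, 34 moved by 1 SD or more, all with the totals just described. Depth limits Mrps18b, Mrpl23 and Mrps36 most, with 15 to 27 counts per library.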
